A study of Mus musculus with 12 samples.

Results

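The 10 genes described here carry or answer the glucocorticoid signal in liver: Nr3c1, Hsd11b1, Zbtb16, Fkbp5, Tsc22d3, Tat, Sgk1, Dusp1 and the metallothioneins Mt1 and Mt2. They were taken by name from the 53465 genes of a count table of mouse liver RNA. The rule itself used no measured value, but the genes were chosen with earlier results of these data known. All 10 had at least 1 count, and 9 of 10 had a mean normalised count of at least 10 over the 12 livers, the exception being Mt2. Total liver RNA of C57BL/6N mice was sequenced at 3 ages: the young mice were 3 months old, the middle-aged mice 12 months and the aged mice 18 months. Each library is taken as 1 animal, since the labels do not say more than 1 per sample, and there were 4 livers at each age, numbered 1 to 4. No treatment, transgene or deletion is named for any group, and the labels give all 12 samples the same strain and tissue. A normalised count is a count divided by the library's size factor, which scales out depth.

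Glucocorticoids are adrenal steroids that enter hepatocytes and bind the receptor encoded by Nr3c1, which is held ready by heat shock chaperones and moves to the nucleus once it has hormone. Hsd11b1 regenerates active hormone from its inert keto form inside the cell. The receptor binds paired copies of the letters AGAACA and raises transcription of enzymes such as tyrosine aminotransferase (Tat), of the feedback chaperone Fkbp5, of the anti-inflammatory leucine zipper Tsc22d3 (also called Gilz), of the zinc finger repressor Zbtb16 (Plzf), of the kinase Sgk1 and of the phosphatase Dusp1. Metallothioneins are small cysteine-rich proteins that hold zinc and copper. Their genes answer metal through the factor Mtf1, and also answer glucocorticoid, cytokines and oxidative stress.

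The libraries held from 8124312 to 10527159 gene counts. Synthetic spike-in transcripts split them into replicates 1 and 2 of every age and replicates 3 and 4 of every age (over 31 spike-ins, the lowest correlation inside a set was 0.997 and the highest across sets 0.925), so each called difference among the 10 genes is also given within each set. A fit within a set holds only 2 livers per age, so passing or not passing there rests on few livers. Young replicate 2 stood apart: mitochondrially encoded genes took 19.2% of its gene counts (5.48 to 10.68% in the other 11 livers), spike-ins took 10.6% (1.59 to 6.23%) and its size factor was the lowest, at 0.785. Of 5 hepatocyte markers 4 were found in the table. Their summed normalised counts were lowest in young replicate 2, at 700735, and ran from 726949 to 970100 in the other 11 livers. The 4 pancreas markers summed to at most 13.0. In RNA from whole tissue, fewer cells of a type and less RNA per cell cannot be told apart.

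The stretches of promoter printed here show the letters that such genes are read through. The sequences are RefSeq's, build GRCm38.p6, and windows of 250 bases before the start were found for 8 of the 10 genes, 15 windows in all because some genes have several starts. The 2 metallothionein windows are shown because Mt1 and Mt2 were high in the same liver. The Mt2 window lies wholly under an exon of Gm45774, a gene annotated on the opposite strand, and the last 7 bases of the Mt1 window are annotated as untranslated exon of Mt1. Both are shown with the core of the metal response element (TGCACNC or TGCGCNC on either strand) in capitals.
Mt2, chr8:94172368-94172617, plus strand: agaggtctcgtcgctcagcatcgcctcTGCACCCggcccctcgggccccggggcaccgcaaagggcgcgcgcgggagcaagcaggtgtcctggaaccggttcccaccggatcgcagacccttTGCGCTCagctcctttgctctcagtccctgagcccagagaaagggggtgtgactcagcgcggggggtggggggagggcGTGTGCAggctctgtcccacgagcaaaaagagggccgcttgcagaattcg
Mt1, chr8:94178839-94179088, plus strand: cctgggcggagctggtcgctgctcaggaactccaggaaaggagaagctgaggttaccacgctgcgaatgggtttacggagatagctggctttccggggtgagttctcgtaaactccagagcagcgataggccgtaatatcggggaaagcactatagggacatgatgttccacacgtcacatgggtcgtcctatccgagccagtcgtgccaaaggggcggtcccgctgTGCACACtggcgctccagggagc
The third stretch lies before one of the 6 RefSeq starts of Sgk1 and is shown because it holds a complete glucocorticoid response element, whose 2 arms are in capitals.
Sgk1, chr10:21993661-21993755, plus strand: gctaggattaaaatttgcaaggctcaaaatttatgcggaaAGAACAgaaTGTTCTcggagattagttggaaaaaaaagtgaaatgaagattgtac

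The metal core was found 3 times in the Mt2 window, once in that of Mt1 and once in that of Hsd11b1. Over all 32851 promoter windows of 27025 genes, 21.4% held at least 1 match and 1.26% held at least 3. The complete element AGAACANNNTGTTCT, searched on both strands, was found in 3 of all the windows (0.00913%), and 1 of these was the Sgk1 window, at bases -189 to -175 from that start (chromosome 10, 21993701 to 21993715). This stretch lies within the Sgk1 gene and outside its annotated exons. With up to 3 mismatches to the element, which 12.4% of all windows reach, the Mt1 and Dusp1 windows and 2 further Sgk1 windows also matched. The half-site AGAACA, which the complete element contains, was present in 16.1% of all windows. A match describes letters in these windows and does not show binding.

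**Figure D1:**
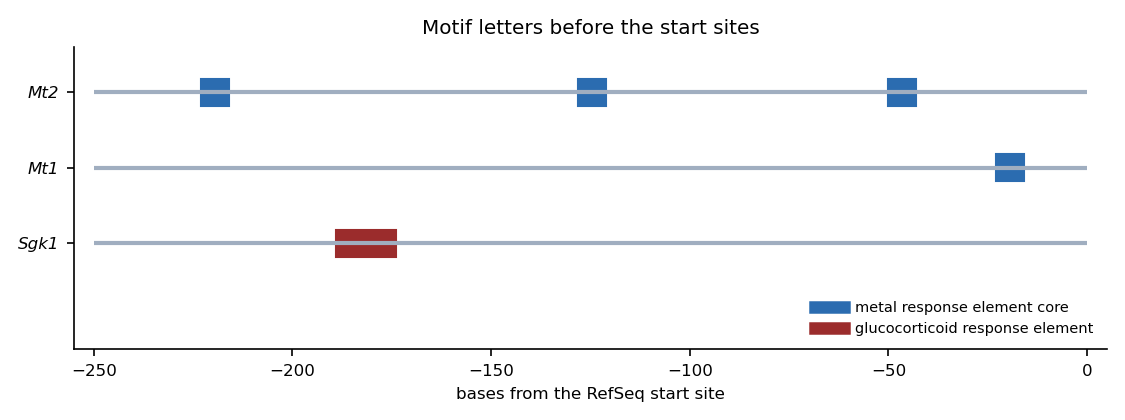
Positions of the motif letters in the windows before the start sites of Mt2, Mt1 and Sgk1; the x axis is the distance in bases from the RefSeq start, blue boxes are metal response element cores and the red box is the complete glucocorticoid response element. Mt2 has 3 boxes, Mt1 has 1 close to the start, and the Sgk1 box begins 189 bases before the start.

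Between aged and young livers, 1 of the 9 genes that entered the adjustment passed DESeq2's Wald test at an adjusted p under 0.05, namely Zbtb16, which fell. Over all 13527 genes tested 3.58% passed, 1.87% higher and 1.71% lower in aged livers. Between middle-aged and young livers, 3 of 8 passed: Zbtb16 and Tsc22d3 fell and Nr3c1 rose, beside 6.41% of all 11333 genes tested, 3.51% higher and 2.9% lower in middle-aged livers. Between aged and middle-aged livers none of 8 passed, 1 had an unadjusted p under 0.05 and edgeR called 0, beside 1.14% of 10236 genes. Across the 3 ages together DESeq2's likelihood ratio test called 2 of 8, Zbtb16 and Tsc22d3, beside 6.96% of 12430 genes. The median log2 fold change of the genes tested was -0.29, -0.37 and 0.06 in the 3 pairs in this order, beside 0.00, 0.01 and 0.01 over all genes tested. Without young replicate 2 the median was 0.09 for aged and -0.23 for middle-aged against young. These medians cover partly different genes, since Mt1 could then be tested and Mt2 left aged against young. The genes called were Zbtb16 alone for aged, and Zbtb16 and Tsc22d3 for middle-aged livers. Mt1 received no p in any of these comparisons, because young replicate 2 exceeded the limit of the Cook's distance rule. Mt2 was left out of the adjustment by independent filtering in all but aged against young.

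**Figure D2:**
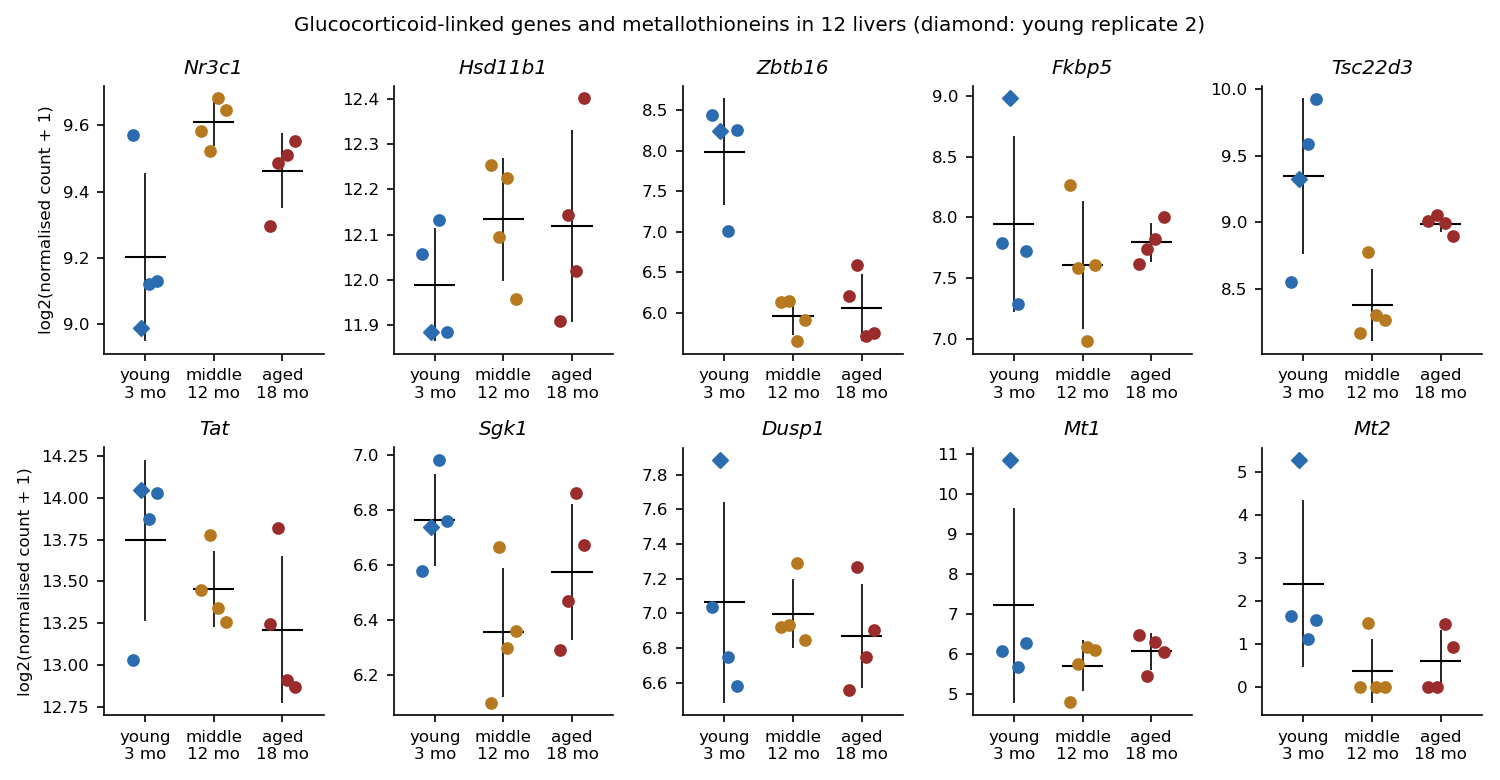
Each panel shows 1 gene; the y axis is log2(normalised count + 1), each point is 1 liver, horizontal bars are means and vertical bars are SD (n = 4), and the diamond is young replicate 2. The 4 young livers lie above all others for Zbtb16, while the diamond lies far above the other 11 livers for Mt1 and Mt2.

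The receptor gene Nr3c1 (ENSMUSG00000024431, chromosome 18, 39410545 to 39519421, GRCm38) had 760, 507, 556 and 559 normalised counts in young replicates 1 to 4. In middle-aged livers it had 767, 734, 820 and 801, and in aged livers 628, 717, 729 and 750. Young replicates 2, 3 and 4 were below all the others, and young replicate 1 lay within the range of the middle-aged ones. The receptor transcript rose from 596 ± 112 in young to 781 ± 37.9 in middle-aged livers (SD, n = 4), which is 0.39 on the log2 scale with an SE of 0.12 (DESeq2 adjusted p = 0.031). Aged livers were at 706 ± 53.6, a log2 fold change of 0.24 against young that did not pass (95% interval 0.00 to 0.48, adjusted p = 0.30). The middle-aged call was lost under edgeR (adjusted p = 0.093), limma (0.18) and in 7 of 8 fits without 1 liver (up to 0.15, without young replicate 2). Without young replicate 1 it held (0.53, adjusted p = 5.8e-06), and aged against young then passed too (adjusted p = 0.0053). Within replicates 1 and 2 the log2 fold change was 0.24 (adjusted p = 0.98), and within replicates 3 and 4 it was 0.53 (0.023).

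The reductase gene Hsd11b1 (ENSMUSG00000016194, chromosome 1, 193221634 to 193264075) had the second highest level of the 10 genes per length, at 1025 normalised counts per kb of exon over the 12 livers. Its normalised counts were 4258, 3780, 4487 and 3777 at 3 months. At 12 months they were 4884, 4376, 4790 and 3976, and at 18 months 3846, 4523, 4153 and 5410. The 3 ages overlapped, and neither older age differed from young by more than the spread: the log2 fold changes were 0.14 for aged (95% interval -0.09 to 0.36) and 0.15 for middle-aged livers (-0.08 to 0.37). Hsd11b2, the enzyme that inactivates the hormone in kidney, had 0 counts in all 12 libraries. The mineralocorticoid receptor gene Nr3c2, which binds the same hormones, was at 103 ± 23.5 normalised counts at 3 months, 133 ± 12.8 at 12 months and 97.9 ± 19.0 at 18 months (SD, n = 4) and passed in no pair.

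Zbtb16 (ENSMUSG00000066687, chromosome 9, 48654297 to 48836222) showed the largest called difference among the 10 genes. It had 346, 303, 128 and 306 normalised counts in the young livers. In middle-aged livers it had 69.5, 70.0, 49.4 and 59.1, and in aged livers 73.3, 95.4, 51.6 and 52.7. Every young liver was above every older one, and young replicate 3 was the lowest of the young. Zbtb16 fell from 271 ± 97.2 in young to 62.0 ± 9.77 in middle-aged livers (SD, n = 4), with a log2 fold change of -2.13 and an SE of 0.30 (DESeq2 adjusted p = 7.6e-10). Aged livers were at 68.2 ± 20.6, a log2 fold change of -1.99 against young (SE 0.29, adjusted p = 1.9e-08), which left 0.251 of the young level (log2 95% interval -2.57 to -1.41). The levels at 12 and 18 months lay within each other's spread (log2 fold change 0.14, 95% interval -0.46 to 0.73). Against young, both calls were made under all 20 alternatives, with log2 fold changes from -2.31 to -1.85 for aged and from -2.38 to -1.99 for middle-aged livers. Aged against young gave -1.94 within replicates 1 and 2 and -2.06 within replicates 3 and 4. Middle-aged against young gave -2.22 and -2.01 in the same sets. Its relative Zbtb7a, another zinc finger repressor, rose in both comparisons, by 0.32 in aged and 0.34 in middle-aged livers on the log2 scale (adjusted p = 0.015 and 0.0060), but edgeR and limma called neither, and neither passed within either set.

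Tsc22d3 (ENSMUSG00000031431, chromosome X, 140539528 to 140600659) was lowest at 12 months. Its normalised counts were 374, 641, 769 and 972 at 3 months. At 12 months they were 286, 436, 313 and 306, and at 18 months 515, 531, 508 and 476. The aged livers lay in a narrow band above all middle-aged ones, and 3 of the 4 young livers were above that band while young replicate 1 was below it. Tsc22d3 fell from 689 ± 251 in young to 335 ± 68.3 in middle-aged livers (SD, n = 4), with a log2 fold change of -1.04 and an SE of 0.23 (DESeq2 adjusted p = 6.8e-04). Aged livers, at 507 ± 22.8, did not differ by a passing test from young ones (-0.44, 95% interval -0.89 to 0.01, adjusted p = 0.33) or from middle-aged ones (0.60, 0.15 to 1.05, adjusted p = 0.24). The middle-aged call held in all 8 fits without 1 liver but not under limma (adjusted p = 0.16), and its size was not alike in the sets, a difference that was not tested: -0.49 (adjusted p = 0.71) within replicates 1 and 2 against -1.50 (2.4e-13) within replicates 3 and 4. Aged against young was 0.05 within replicates 1 and 2 and passed within replicates 3 and 4 (-0.83, adjusted p = 3.1e-04) and in the fit without young replicate 1 (-0.65, adjusted p = 0.011). Its paralogue Tsc22d1 rose from middle-aged to aged livers by 0.52 on the log2 scale (adjusted p = 0.023), but edgeR and limma did not call it and it passed within neither set.

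Tat (ENSMUSG00000001670, chromosome 8, 109990437 to 109999803), which begins tyrosine breakdown and is the classical glucocorticoid-induced liver enzyme, was the most abundant of the 10 genes per length, at 4908 normalised counts per kb of exon. It had 8359, 16913, 15010 and 16725 normalised counts at 3 months. At 12 months it had 11172, 14009, 10357 and 9771, and at 18 months 9716, 14442, 7707 and 7474. Young replicate 1 was lower than every middle-aged liver, while aged replicate 2 lay above all of them. The groups overlapped, and the log2 fold change of aged against young was -0.54 (95% interval -0.99 to -0.08, DESeq2 adjusted p = 0.21). For middle-aged against young it was -0.33 (95% interval -0.79 to 0.13, adjusted p = 0.43), with -0.67 within replicates 3 and 4, which passed (adjusted p = 9.3e-08), beside 0.00 within replicates 1 and 2. Aged against young was -0.06 within replicates 1 and 2 and passed within replicates 3 and 4 (-1.07, adjusted p = 7.1e-21), and it also passed without young replicate 1 (-0.72, adjusted p = 0.023) and without aged replicate 2 (-0.78, 0.016).

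Fkbp5 (ENSMUSG00000024222, chromosome 17, 28399094 to 28517527), whose protein slows the receptor's entry into the nucleus, had 221, 504, 155 and 211 normalised counts at 3 months. At 12 months it had 308, 191, 125 and 194, and at 18 months 196, 213, 225 and 256. Young replicate 2 was the highest of the 12, and the other livers overlapped between ages. The log2 fold change was -0.29 for aged (95% interval -0.93 to 0.35) and -0.41 for middle-aged livers (-1.05 to 0.23) against young. The intervals are wide: without young replicate 2 or within replicates 3 and 4 the aged difference took the other sign, and across the alternatives it ran from -0.82 to 0.39 with no call.

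Sgk1 (ENSMUSG00000019970, chromosome 10, 21882184 to 21999903), a kinase that regulates ion transport, had 94.5, 106, 126 and 107 normalised counts in young livers. In middle-aged livers it had 67.5, 101, 77.7 and 81.2, and in aged livers 77.3, 87.7, 115 and 101. The ages overlapped, and the log2 fold changes against young were -0.40 at 12 months (95% interval -0.77 to -0.03, DESeq2 adjusted p = 0.18) and -0.18 at 18 months (-0.54 to 0.18, 0.72). Its paralogue Sgk2 had a log2 fold change of 0.38 at 12 months (DESeq2 adjusted p = 0.048), a call made under 5 of 20 alternatives.

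Dusp1 (ENSMUSG00000024190, chromosome 17, 26505590 to 26562128) removes phosphate from MAP kinases and is induced both by glucocorticoid and by stress. It had 131, 236, 107 and 94.7 normalised counts at 3 months. At 12 months it had 120, 121, 155 and 114, and at 18 months 93.3, 153, 107 and 119. Young replicate 2 was the highest liver and the ages overlapped. The log2 fold changes against young were -0.26 for aged (95% interval -0.79 to 0.27) and -0.15 for middle-aged livers (-0.67 to 0.38), and each took the other sign under 2 alternatives, among them the fit without young replicate 2 (0.09 and 0.21).

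**Figure D3:**
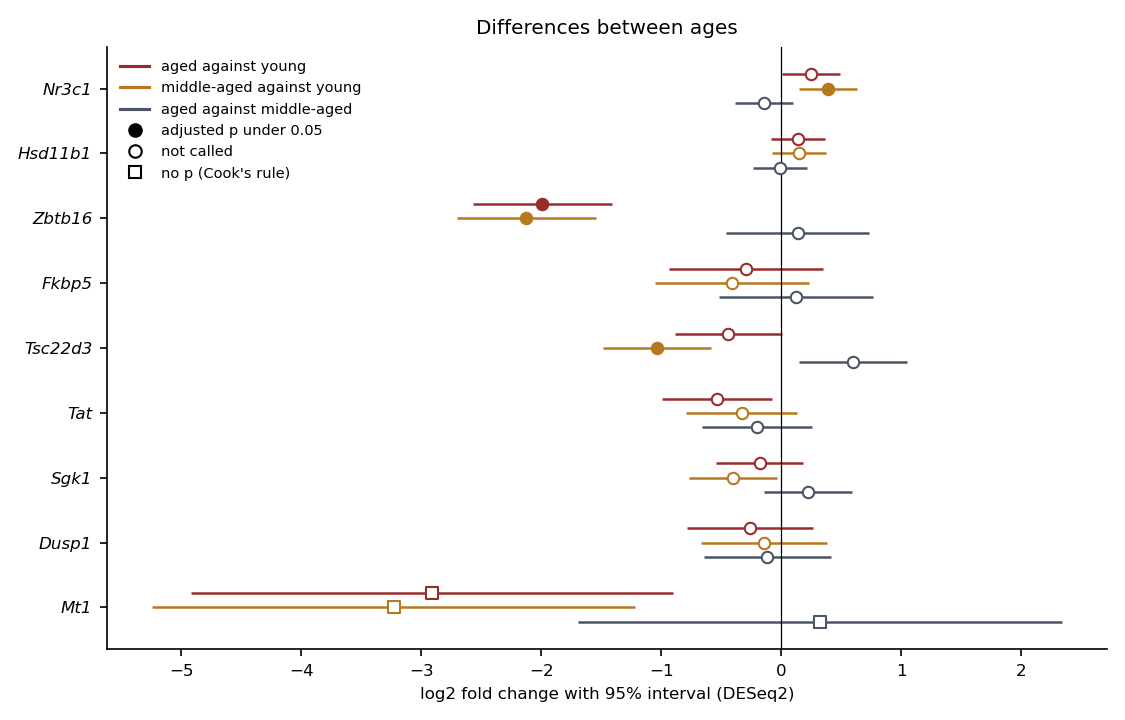
Log2 fold changes (x axis) of 9 of the genes for the 3 pairs of ages, with 95% intervals from DESeq2; filled circles passed at an adjusted p under 0.05, open circles did not, and squares had no p. The filled points are Zbtb16 in both comparisons with young, and Tsc22d3 and Nr3c1 in middle-aged against young; Mt2 is not drawn because 11 of its libraries were at or under 3 counts.

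Mt1 (ENSMUSG00000031765, chromosome 8, 94179082 to 94180327) had 1868 normalised counts in young replicate 2. The other young livers had 66.9, 49.8 and 76.1, the middle-aged livers 26.8, 53.0, 71.5 and 68.2, and the aged livers 88.3, 42.4, 77.8 and 65.3. Young replicate 2 was 21.2 times the next liver and 27.9 times the median of the other 11. Of 11803 genes with a mean of at least 10, 0.246% reached at least 2 times the next liver in that library. In raw counts it was 1467 reads in young replicate 2 and from 27 to 89 in each of the others. With that liver the fitted log2 fold changes against young were -2.91 for aged and -3.23 for middle-aged livers, with SE of 1.02 and 1.03. Without it they were 0.09 (SE 0.34, DESeq2 adjusted p = 0.98) and -0.23 (SE 0.35, 0.84), so the young mean of 515 ± 902 (SD, n = 4) rests on 1 liver.

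Mt2 (ENSMUSG00000031762, chromosome 8, 94172664 to 94173568) lies next to Mt1 on the same strand and was nearly unread. Its raw counts were 2, 30, 1 and 2 at 3 months, 0, 2, 0 and 0 at 12 months, and 0, 0, 2 and 1 at 18 months. The other 11 libraries were thus at or under the floor of 3 counts per library, and young replicate 2, at 38.2 normalised counts, was at least 10.7-fold higher than that floor in any of them. No ratio between ages is given, since both older ages lay at the floor. Over the 12 libraries Mt1 took 2179 counts and Mt2 40; Mt1 had 48.9 counts per count of Mt2 in young replicate 2 and 71.2 over the other 11 summed. Of the 588 exonic bases of Mt2, 432 lie under an exon of the opposite-strand gene Gm45774, and 156 are free. Gm45774 had 0 counts in all libraries. Whether the counting used strand is not given in the sources used here, so the level of Mt2 relative to Mt1 is uncertain, and the part of the overlap in it was not tested. The other genes except Dusp1 share no exonic base with another gene, and Dusp1 shares 11 of its 3311 with Ergic1 on the opposite strand.

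The remaining family members Mt3 and Mt4, which belong to brain and stratified epithelium, had 0 counts in all libraries. The genes that handle zinc were read in young replicate 2 beside Mt1. Mtf1, the metal-sensing factor, was at 162 normalised counts in young replicate 2, inside the range of 156 to 228 of the other 11. The zinc exporter gene Slc30a1 was at 173, inside 161 to 299.9 but at 0.669 of their median. Gclc of the same list was lowest there, at 1521, with the others from 1840 to 4136. None of the 12 genes of this list with a mean of at least 10 was highest in young replicate 2, and their median ratio to the other 11 livers was 0.975, beside 0.995 over all genes. Between ages 1 of 12 passed: Slc30a10, a manganese exporter of liver, rose from 294 ± 39.8 in middle-aged to 544 ± 109 in aged livers (SD, n = 4, log2 fold change 0.89, DESeq2 adjusted p = 3.1e-04), a call lost under edgeR and within replicates 1 and 2.

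Per length, the order of the 10 genes over the 12 livers was Tat, Hsd11b1, Mt1, Tsc22d3, Nr3c1, Dusp1, Zbtb16, Fkbp5, Sgk1 and Mt2 by mean normalised counts per kb of exon. The means ran from 4908 for Tat and 1025 for Hsd11b1 through 118 for Tsc22d3 and 90.3 for Nr3c1 to 19.4 for Sgk1. Tat and Hsd11b1 stood clear of the rest in every liver except for Mt1 in young replicate 2, which reached 1500 per kb. Mt1 owed its place to that liver, since its median was 54.2 per kb, below the 95.2 of Nr3c1. Zbtb16 likewise owed its place to the young livers, at 51.2 ± 18.4 per kb against 11.7 ± 1.85 at 12 months and 12.9 ± 3.91 at 18 months (SD, n = 4), and its median of 13.6 per kb lay below those of Fkbp5 (22.4) and Sgk1 (19.9). The ranges over livers of Fkbp5 (13.2 to 53.3 per kb) and Sgk1 (13.8 to 25.6) overlapped, and that of Dusp1 (28.2 to 71.2) overlapped the range of Fkbp5 but not that of Sgk1.

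Of 22 other glucocorticoid-responsive genes, 4 passed in aged against young livers and all 4 fell, where 3.58% of all genes tested passed and 1.71% were lower, with a median log2 fold change over the list of -0.36 beside 0.00 over all genes tested. Lpin1, a phosphatidate phosphatase and coactivator, fell from 1641 ± 890 to 424 ± 91.9 normalised counts (SD, n = 4, log2 fold change -1.95, DESeq2 adjusted p = 3.4e-05), with no overlap between the groups. Errfi1, a brake on EGF receptor signalling, fell from 8638 ± 1323 to 4140 ± 1580 (-1.06, adjusted p = 6.9e-04). Igfbp1, an IGF-binding protein repressed by insulin, had a log2 fold change of -2.14 (adjusted p = 0.015), and Tdo2, the first enzyme of tryptophan breakdown, of -0.45 (adjusted p = 5.1e-04). Without young replicate 2, Errfi1, Lpin1 and Tdo2 still passed and Igfbp1 did not (adjusted p = 0.10). Errfi1 and Lpin1 passed under all 20 alternatives, and Tdo2 did not pass under edgeR or within replicates 1 and 2. Igfbp1 passed within neither set. In the same comparison 2 of 4 red cell markers were called lower (Hbb-bs, -1.67, and Alas2, -0.60, with a list median of -1.75), as was the biliary marker Tff3 (-4.06). Sox9 of the biliary list (0.86), Marco of Kupffer cells (2.46, list median -0.04) and Ecm1 of stellate cells (0.57) were called higher. Without young replicate 2, Hbb-bs (DESeq2 adjusted p = 0.27), Alas2 (0.17) and Marco (0.086) did not pass, while Tff3, Sox9 and Ecm1 did. Of 20 alternatives Hbb-bs was called under 6, Sox9 under 10, Marco under 11, Alas2 under 13, and Tff3 and Ecm1 under 19 each. The part of these markers in the values of the glucocorticoid-responsive genes was not tested.

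In middle-aged against young livers 2 of the 22 passed and both fell, where 6.41% of all genes tested passed and 2.9% were lower. The median over the list was -0.51 beside 0.01 over all genes tested. Igfbp1 fell from 435 ± 130 to 42.2 ± 17.5 normalised counts (SD, n = 4, log2 fold change -3.36, DESeq2 adjusted p = 5.6e-06), a call made under all 20 alternatives. Cebpd, a transcription factor of the acute phase, had -0.90 (adjusted p = 0.021) and did not pass without young replicate 2 (0.14) or within either set. None of the 22 passed between aged and middle-aged livers with DESeq2, and 5 had an unadjusted p under 0.05. The receptor targets Per1 and Klf9, named whatever their values, had log2 fold changes of -1.12 and -0.56 for aged against young (adjusted p = 0.14 and 0.12) and -0.91 and -0.24 for middle-aged against young (0.20 and 0.55).

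**Figure D4:**
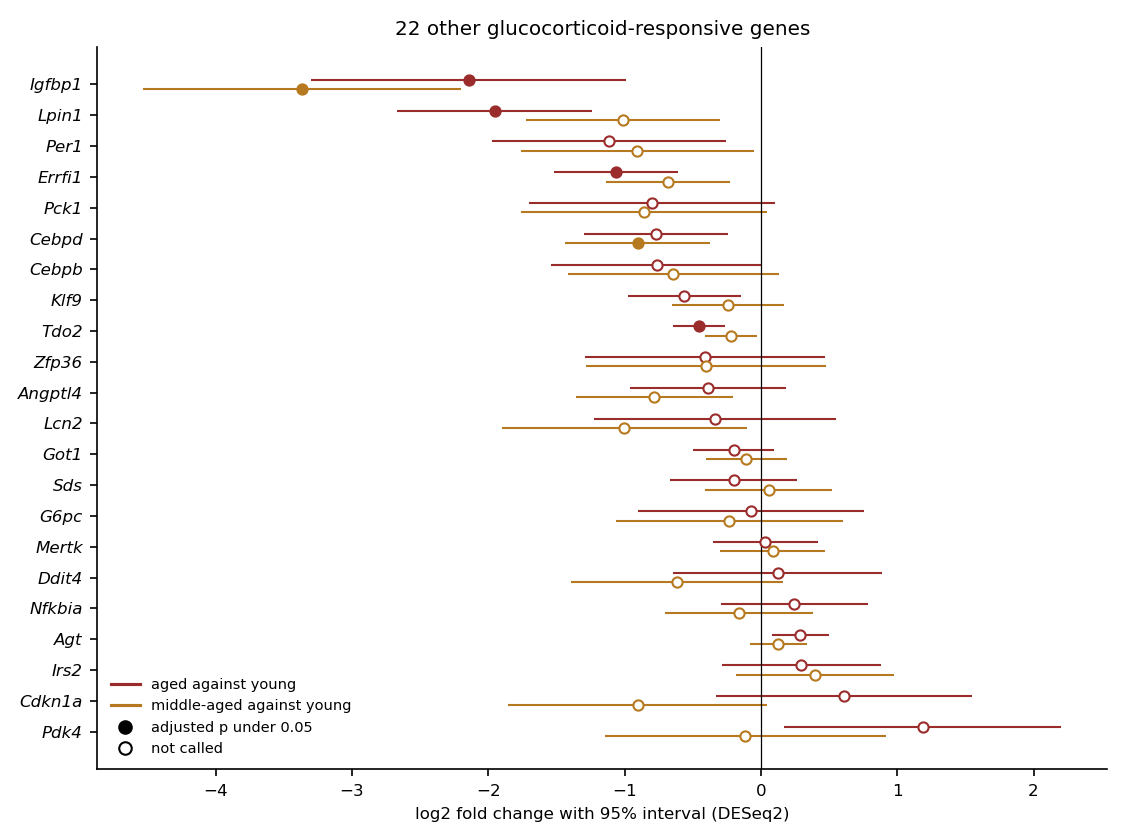
Log2 fold changes (x axis) of the 22 other glucocorticoid-responsive genes in aged (red) and middle-aged (ochre) against young livers, with 95% intervals from DESeq2, ordered by the aged value; filled points passed at an adjusted p under 0.05. The filled points are Igfbp1, Lpin1, Errfi1 and Tdo2 in red and Igfbp1 and Cebpd in ochre, all to the left of 0.

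Among the receptor's chaperones, cofactors and steroid-handling genes, 1 of 17 passed in aged and 2 of 15 in middle-aged against young livers, beside 3.58% and 6.41% of all genes. Serpina6, which encodes the plasma carrier of corticosteroids, rose from 1211 ± 252 normalised counts at 3 months to 2183 ± 293 at 12 and 2030 ± 434 at 18 months (SD, n = 4). Its log2 fold changes were 0.85 and 0.75 (DESeq2 adjusted p = 2.6e-04 and 0.0026), the highest young liver (1536) lay just below the lowest of the others (1538), and of 20 alternatives only limma did not call it at 18 months. The chaperone gene Hsp90aa1 had -0.67 at 12 months (adjusted p = 0.019), lost without young replicate 2 (0.091) and within replicates 1 and 2. The list's medians were -0.08 and -0.06.

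For the genes called between ages, the genes most like each in pattern were found by Pearson correlation of log2(normalised count + 1) over the 12 livers, among genes averaging 50 normalised counts or more. The 12 points share their libraries and fall into 3 age groups. For Zbtb16 they were Gm45871 (0.93), Hsd17b2 (0.91) and Sec13 (0.91). For Nr3c1 they were Evi5 (0.94), Lpcat3 (0.94) and Klhdc7a (0.93), and for Tsc22d3 Ccnf (0.94), Gpatch4 (0.93) and Gripap1 (0.90). Without young replicate 2, of these 9 genes only Gm45871, Gpatch4 and Ccnf stayed among the 3 most alike. By deviations from the age means none of the 9 did, and the 3 most like Zbtb16 were then Topors (0.91), Sun2 (0.91) and Rab35 (0.91).

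Young replicate 2 was the highest of the 12 livers for 4 of the 9 genes with a mean of at least 10: Mt1, Fkbp5, Dusp1 and Tat. Among all 11803 genes with such a mean it was highest for 16.1%, while the other libraries were highest for 4.89 to 11.2%. That mean took in young replicate 2 itself, here and for the gene lists, so genes high mainly there could enter these counts. It was 2.39 times the median of the other 11 livers for Fkbp5, 1.98 times for Dusp1 and 1.63 times for Tat, where it exceeded young replicate 4 by a ratio of 1.01. Nr3c1 was lowest in the same liver, at 0.690 of the median of the others. Zbtb16, Tsc22d3, Sgk1 and Hsd11b1 lay within the range of the other young livers.

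The same liver was highest for 10 of the 22 other glucocorticoid-responsive genes, 5 of 12 immediate early genes and 11 of 20 acute phase genes, and for none of the 16 receptor chaperones and cofactors. The serum amyloid genes Saa1 and Saa2, which hepatocytes make in inflammation, had 4034 and 2014 normalised counts there, 17.4 and 19.9 times the median of the other 11. Of the cell type markers it was highest for 4 of 6 of Kupffer cells, 3 of 5 of sinusoidal endothelium, 2 of 2 of neutrophils (S100a8 and S100a9) and 4 of 4 of red cells. It was also highest for 1 of 4 biliary markers, Tff3, at 346 normalised counts, 24.5 times the median of the other 11. It was lowest for 5 of 5 of stellate cells, 2 of 4 of hepatocytes (Alb and Cyp2e1) and 1 of 1 of fat. S100a8, S100a9 and Fos, an immediate early gene, had 104, 145 and 84.1 there. Their medians in the other 11 were 5.36, 9.71 and 6.28. Summed red cell markers were 79147 in it and from 9025 to 45686 in the others, and summed neutrophil markers 281 against 6.95 to 89.3. Of the adrenal cortex markers, which would mark carried-over adrenal tissue, Cyp11b1, Cyp11b2 and Cyp11a1 were at 0 in it. In the other livers these were at most 1.18, with Cyp11b1 at 0 in all. The remaining marker, Star, was at 29.3, inside the range of 20.2 to 105 of the other 11. The part of these markers, of the mitochondrial share and of depth in the values of Mt1, Fkbp5, Dusp1 and Tat was not tested.

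**Figure D5:**
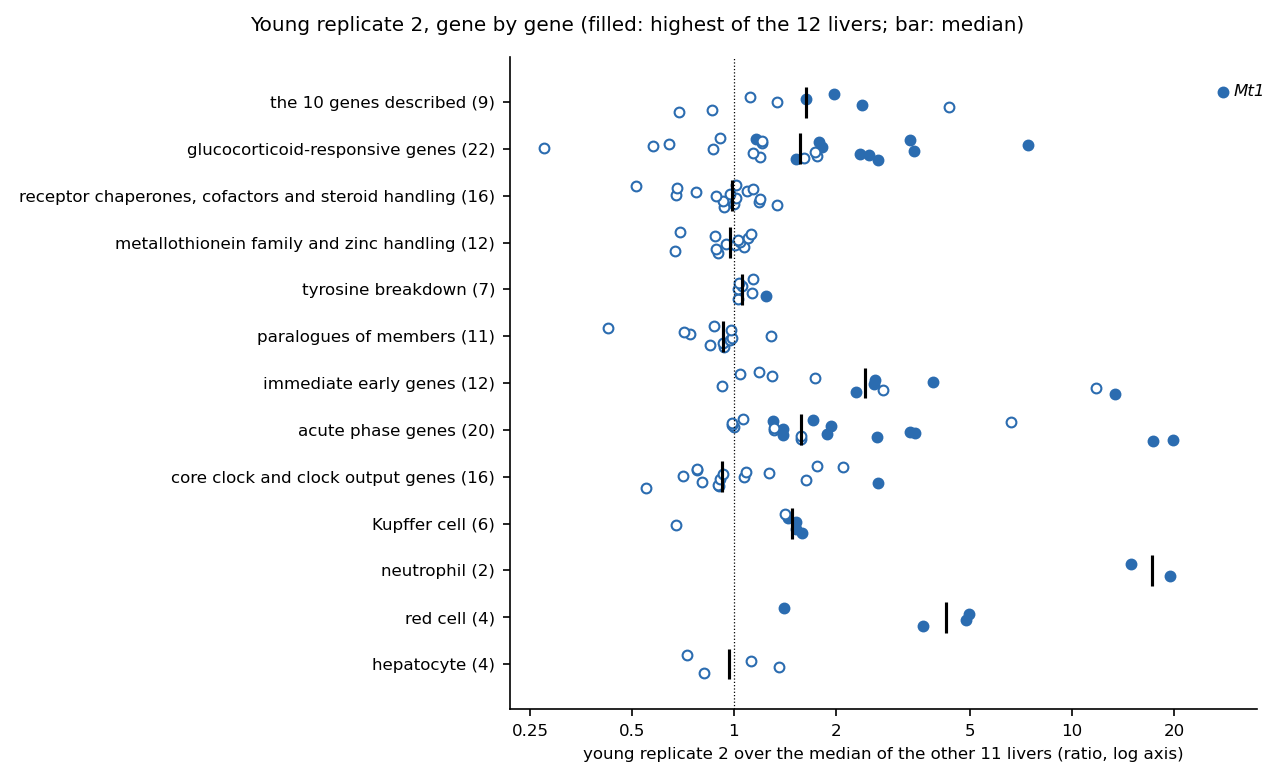
The x axis (log) is the level in young replicate 2 over the median of the other 11 livers, each point is 1 gene averaging 10 normalised counts or more, rows are gene lists with the number of genes in brackets, filled points were highest of the 12 livers in young replicate 2, and bars are medians. Mt1 lies at 27.9, the 2 neutrophil genes and Saa1 and Saa2 lie between 14.9 and 19.9, and the chaperone and zinc-handling rows centre near 1.

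Other lists were followed beside these genes. Of the immediate early genes none of 13 passed in aged against young livers with DESeq2, beside 3.58% of all genes. In this list 5 genes had an unadjusted p under 0.05. Of this list 3 of 11 passed in middle-aged against young livers, all lower, beside 2.9% of all genes that passed lower. The list's median was -0.63. Of the 3, Egr1 alone (log2 fold change -3.49, DESeq2 adjusted p = 2.8e-04) still passed without young replicate 2. Of the acute phase genes 6 of 20 passed lower in middle-aged livers, led by Saa1 (-2.97, adjusted p = 0.0021) and Saa2 (-2.90, 0.0097), beside 2.9% of all genes that passed lower. Without young replicate 2 these 2 of the 6 still passed with smaller differences (-1.67, adjusted p = 0.018, and -1.23, 0.0498), and Itih4 and Hamp were then called higher. In aged livers 2 of the 20 were higher (Hamp and Itih4) and 2 lower (Orm1 and Orm2), beside 1.87% and 1.71% of all genes. Neither Orm1 nor Orm2 passed without young replicate 2. Of the clock genes 6 of 15 passed in middle-aged against young, 9 of 14 in aged against middle-aged and 1 of 16 in aged against young livers, beside 6.41%, 1.14% and 3.58% of all genes. Dbp, a clock output factor, had log2 fold changes of 1.95 (adjusted p = 0.014) and then -2.78 (3.6e-04). Tsc22d3 had its lowest group mean at 12 months and Dbp its highest, and the part of the clock in the values of Tsc22d3 was not tested.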

How the data were processed

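The authors deposited 1 table of raw counts per gene for the 12 livers, with no normalisation. The submitters' processing notes name STAR 2.5.2b, SAMtools 1.9, featureCounts and the builds mm10 and GRCm38, but not the counting strand. The series' design text gives 3 replicates per age, while the labels and the table hold 4. The preparation protocol describes young and old livers only, and the study's methods draw their liver RNA-seq at 3 ages from a published resource, so the origin of these libraries is uncertain. Replicate labels do not say more than 1 animal per sample, and p-values measure the spread between these samples.

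The 28449 genes with at least 1 count were fitted in DESeq2 1.42.0 (R 4.3.3), as the study's methods use DESeq2, with age as the only term, over all 12 libraries, with median-of-ratios size factors and Benjamini-Hochberg adjustment. Positions and exonic lengths are from GENCODE M21 (GRCm38), which held 53360 of 53465 identifiers. Intervals come from the DESeq2 SE, whose model takes in the spread between livers. The floor of 3 counts covers counting error only. The scripts were tested on simulated data. The 10 genes, the lists and the markers were chosen with earlier results of these data known. Named list genes are the up to 5 called genes in each direction with the largest change and a mean normalised count of at least 50, plus Nr3c2, Hsd11b2, Mtf1, Mt3, Mt4, Slc30a1, Per1 and Klf9. Genes named for young replicate 2, and Gm45774 and Ergic1, were chosen after their values or positions were seen.

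Alternatives were limma 3.58.1 voom with quality weights, TMM factors, total gene counts, keeping genes that reached 10 counts in 4 or more libraries, no independent filtering, no Cook's distance rule, only the groups compared, a replicate block, a term for the spike-in set, fits within replicates 1 and 2 or 3 and 4, and leaving out each liver. edgeR 4.0.16 on filtered genes was chosen after seeing the data. Same-numbered livers came from different animals, and their deviations were not alike. Every pair of replicates differed by more than sampling noise (smallest chi-square per gene 11.2).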

Additional observations from a re-analysis of the deposited data

Results flagged for a closer look

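In 4 of 30 groups of 4 livers, 1 value stood far from the other 3 by Dixon's test, beside the 1.5 that chance gives at 1 in 20. Young replicate 2 was such a value for Mt1, at 1868.4 normalised counts with the nearest young liver at 76.1, and for Mt2, at 38.2 with the nearest at 2.12. Middle-aged replicate 3 stood apart for Dusp1, at 155.41 with the nearest at 121. Middle-aged replicate 2 stood apart for Mt2, at 1.7956 normalised counts, which is 2 reads beside 3 libraries at 0 and lies under the floor of 3 counts.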

How the results depend on the processing

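Zbtb16 was called against young at both older ages under all 20 alternatives run for each. Of the 10 genes, aged against young called 3 within replicates 3 and 4 (Zbtb16, Tsc22d3 and Tat), beside 479 of all 10978 genes tested. Fits leaving out a liver called from 1 to 4, with 4 without young replicate 1, beside 386 of 12374. Middle-aged against young, with 3 called, called 1 under limma (beside 262 of all 28449 genes tested) and 1 within replicates 1 and 2 (251 of 12117). The same pair called 4 within replicates 3 and 4 (Tat added, beside 306 of 8464) and 4 without the Cook's distance rule (Mt1 added, 729 of 11351). Aged against middle-aged called 1 (Tsc22d3) when only those groups were fitted, beside 130 of all 10191 genes tested. Within replicates 3 and 4 it called 2 (Tsc22d3 and Tat), beside 306 of 12487. The 3 ages together called 1 under edgeR (beside 230 of all 12174 genes tested), 1 under limma (367 of 28449) and 1 within replicates 1 and 2 (270 of 13512). They called 4 within replicates 3 and 4 (637 of 12487), and from 2 to 4 leaving out a liver. With the replicate block the 4 counts were 1, 2, 0 and 2; the numbers belong to different animals, correlations of same-numbered deviations ran from -0.30 to 0.16, and 1 of 12 livers was most like one of its own number. The cause of these differences was not tested.

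Over all genes, the 484, 727, 117 and 865 calls (aged against young, middle-aged against young, aged against middle-aged, 3 ages together) became 170, 281, 13 and 230 under edgeR, 227, 262, 91 and 367 under limma, and 655, 385, 426 and 451 with the replicate block. Without independent filtering they were 321, 443, 62 and 611, within replicates 1 and 2 139, 251, 29 and 270, and within replicates 3 and 4 479, 306, 306 and 637. With only the groups compared, the 3 pairs gave 289, 1166 and 130. Leaving out a liver gave 237 to 1291, 345 to 840, 40 to 198 and 503 to 1637, with 1291 and 1637 without aged replicate 1. Scaling to total gene counts gave 787, 1000, 79 and 1155, and moved the split of higher and lower genes from 253 and 231 to 648 and 139 for aged, and from 398 and 329 to 841 and 159 for middle-aged against young. It raised the log2 fold changes of the genes followed by a median of 0.12 and 0.11, and changed the sign of none of the 10 genes or of the called list genes. edgeR without a count filter was planned and not run, because most of its calls on simulated data were false. At the depth of these libraries, Mt2 could not be resolved in 11 livers.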
